A study of Danio rerio with 9 samples.

Results

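The genes of fatty acid synthesis and desaturation were taken from the deposited count table by their row names. Of 10 symbols sought, 9 were found among 28802 rows. 8 matched by exact name, and acly was found as aclya, which the RefSeq names list with acly as an older symbol. The symbol fasn, for fatty acid synthase, matched no row under that name and was not analysed here.

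Fatty acid synthesis in the cytosol starts from citrate that leaves the mitochondrion, which ATP citrate lyase (acly) cleaves to acetyl-CoA. The acetyl-CoA carboxylases (acaca, acacb) turn acetyl-CoA into malonyl-CoA, fatty acid synthase joins these units into palmitate, and elongases and desaturases (elovl6, scd, scdb, fads2) then lengthen the chain and introduce double bonds. The transcription factors SREBP1 (srebf1) and ChREBP (mlxipl) drive these genes in the mammalian liver, in response to insulin and to glucose respectively. In a larval fish at the age studied, liver and intestine are main sites of lipid handling.

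The study sequenced RNA from larvae of the zebrafish, Danio rerio, taken whole at 8 days post fertilization. Each of 3 genotypes had 3 libraries, and each library held the total RNA of 7 pooled larvae. The wild type carries the name AB, a standard laboratory line, in the table's column headers. Single mutants had both copies of fam177a1a carrying the allele stl700. Double mutants carried stl700 in the same state together with the allele stl746 of fam177a1b, also homozygous. The human gene FAM177A1 codes for a Golgi-localized protein. All 3 groups were whole larvae of the same age, and no treatment is named in the labels. Whether a genotype's libraries derive from separate clutches is not stated, so p-values measure only the spread between these libraries. A difference in clutch or background line between the genotypes cannot be told apart from the alleles.

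The libraries held between 17.0 and 24.7 M counts, so that 3 counts in a library amount to 0.121 to 0.178 CPM, the normalised count used here (a count scaled to the same library total throughout). The row fam177a1, a check of the labels, lay between 22.4 and 27.0 CPM in wild type and between 0.418 and 0.890 CPM in all 6 mutant libraries. Both mutants carry stl700, so this row checks mutant against wild type only. It cannot tell single from double mutants, between which its log2 difference was -0.10 (edgeR adjusted p = 0.920). In a principal component analysis of all tested genes, single-mutant replicate 1 stood apart from the other single mutants. On the first component, with 57.6% of the variance, it lay at 21.7, near the double mutants at 17.0 to 20.9. The other single mutants lay there at 35.8 and 39.7. On the second, which carried 16.9% of the variance, it lay at -6.18. The other single mutants lay there at 28.5 and 32.1 and the double mutants between -25.7 and -21.8. On the third it lay at 31.8, and all other libraries between -14.4 and 3.29. Several results below are given with and without this library.

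Genes lower in both mutants were aclya, the elongase elovl6, the less abundant of the delta-9 desaturases (scd) and srebf1, and 1 of the acetyl-CoA carboxylases was higher. By edgeR's quasi-likelihood test with a Benjamini-Hochberg adjusted p under 0.05 over 21694 tested genes, aclya, elovl6, scd and srebf1 fell in single and in double mutants against wild type. Over the same comparisons acacb rose, while acaca and scdb did not pass the test. The gene mlxipl rose in single mutants only by this test, and its difference between the mutants did not pass it (adjusted p = 0.368). In all, 6 of the 9 genes were called in single mutants (2 higher, 4 lower), beside 42.0% of all tested genes (19.5% higher, 22.6% lower). In double mutants 5 of the 9 were called (1 higher, 4 lower), beside 32.2% of all genes (14.2% higher, 18.0% lower). All 9 genes passed the filter on low counts. Their median log2 fold change was 0.03 in single mutants and -0.08 in double mutants, beside -0.01 over all genes in each. Both comparisons use the same 3 wild-type libraries. Without single-mutant replicate 1 the shares over all genes were 47.1% in single mutants and 39.6% in double mutants, and 7 and 5 of the 9 genes were called.

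**Figure D1:**
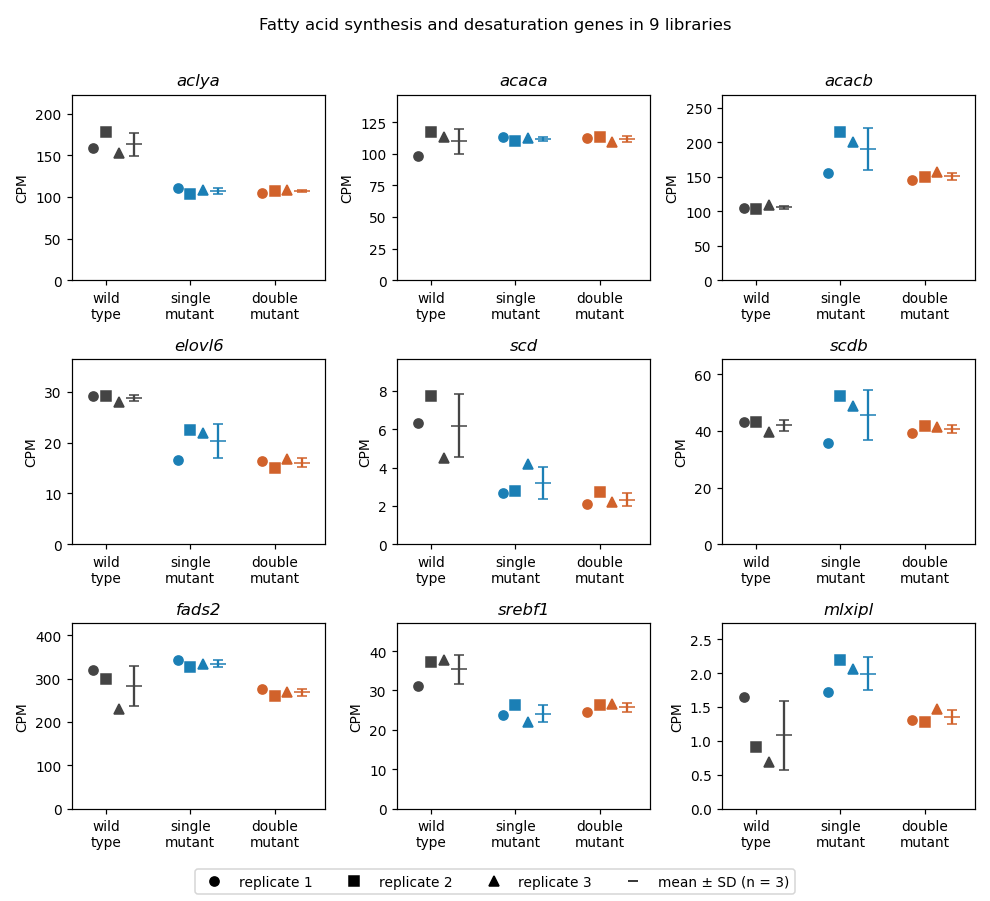
Each panel plots 1 gene, with the normalised level in CPM on the vertical axis from 0 and the 3 genotypes on the horizontal axis; points are libraries, with 1 marker shape per replicate number, and bars give the mean ± SD (n = 3). The mutant points of aclya, elovl6, scd and srebf1 lie below every wild-type point, those of acacb lie above, and those of acaca and scdb are mixed with the wild type.

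The transcript of the first enzyme of the route was lower in every mutant library. aclya, which supplies acetyl-CoA from citrate, stood at 158, 178 and 153 CPM in wild type. It stood at 110, 104 and 108 CPM in single mutants and at 105, 107.6 and 108.0 CPM in double mutants. No mutant library reached the lowest wild-type library, and the mutants overlapped one another. The level was 163 ± 13.5 CPM in wild type (SD, n = 3) and fell by 34.1% in single mutants (log2 fold change -0.60, SE 0.07, edgeR adjusted p = 1.46e-05). In double mutants it fell by 34.4% (log2 fold change -0.61, SE 0.07, edgeR adjusted p = 1.95e-05). Between the mutants the log2 difference was -0.01, with a 95% interval from -0.16 to 0.15. Its paralogue aclyb, chosen for naming after the table was seen, was far lower per length, with a ratio of aclya to aclyb of 20.4 ± 2.37 in wild type (SD, n = 3). The ratio was 15.6 ± 3.01 in single mutants, which overlapped wild type, and 15.6 ± 0.848 in double mutants, which did not (SD, n = 3 each). An exact permutation test against wild type gave p = 0.2 and p = 0.1, the latter being the smallest that 3 libraries against 3 allow. The log2 fold change of aclyb was -0.18 in single mutants (edgeR adjusted p = 0.347) and -0.22 in double mutants (edgeR adjusted p = 0.281). How reads shared by near-identical paralogues were counted is not given in the sources used here, so the split between such copies is uncertain.

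The transcripts of the carboxylases differed from each other. acacb, whose mammalian product sits at the mitochondrial outer membrane and makes the malonyl-CoA that restrains fatty acid import, stood at 104, 103 and 108 CPM in wild type. It reached 156, 215 and 200.2 CPM in single mutants and 146, 149 and 156 CPM in double mutants. Every mutant library was above every wild-type library, and single-mutant replicate 1 lay with the double mutants. The level was 1.80-fold that of wild type in single mutants (log2 fold change 0.85, SE 0.10, edgeR adjusted p = 8.94e-06) and 1.43-fold in double mutants (0.51, SE 0.10, edgeR adjusted p = 0.000934). acaca, the carboxylase that in mammals feeds cytosolic synthesis, stood at 98.4, 117 and 114 CPM in wild type. Its single-mutant libraries lay between 110.2 and 113 CPM and its double-mutant libraries between 109 and 113 CPM, inside the wild-type range. The log2 fold change of acaca was 0.03 in each mutant, with a 95% interval from -0.13 to 0.18 in both comparisons (edgeR adjusted p = 0.811 and 0.827).

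Set against each other within a library, acacb gained on acaca. Per gene length (TPM, the count per base of gene scaled to a common library total), the ratio of acacb to acaca was 1.20, 0.999 and 1.08 in the wild-type libraries. Single mutants had ratios of 1.56, 2.21 and 2.02, and double mutants had 1.47, 1.49 and 1.62, so that no mutant ratio fell within the wild-type range. The mean was 1.09 ± 0.103, 1.93 ± 0.335 and 1.53 ± 0.0850 in the same order (SD, n = 3 each). An exact two-sided permutation test gave p = 0.1 for each mutant against wild type, which is the smallest p that 3 libraries against 3 allow and cannot pass the threshold, and p = 0.2 between the mutants. A ratio shows unequal change of the pair and not which of them changed.

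The transcript of the elongase of saturated chains was lower and that of its close relative was not. elovl6, which extends palmitate to stearate, stood at 29.1, 29.2 and 28.0 CPM in wild type, where the libraries were close. It stood at 16.5, 22.5 and 21.9 CPM in single mutants and at 16.4, 15.0 and 16.8 CPM in double mutants. All mutant libraries were below all wild-type libraries, and single-mutant replicate 1 again lay among the double mutants. elovl6 fell by 29.5% in single mutants (log2 fold change -0.50, SE 0.11, edgeR adjusted p = 0.00206) and fell by 44.1% in double mutants (-0.84, SE 0.11, edgeR adjusted p = 5.82e-05).

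The paralogue elovl6l, chosen after the table was seen, lay higher in both mutants and passed the test in single mutants only. Wild type held 15.0, 17.5 and 18.2 CPM, single mutants 18.7, 24.3 and 36.1 CPM and double mutants 22.1, 20.0 and 21.7 CPM. The single mutants spread widely, and their lowest library lay just above the highest wild-type library. The double mutants also lay above every wild-type library. Its log2 fold change was 0.64 in single mutants (SE 0.20, edgeR adjusted p = 0.0273) and 0.33 in double mutants (SE 0.20, edgeR adjusted p = 0.246). The call in single mutants was lost in 4 of 17 alternatives, among them leaving out any 1 wild-type library, with adjusted p of up to 0.0798. In double mutants elovl6l passed in 3 of 17 alternatives, with adjusted p from 0.00694 to 0.440. The TPM ratio of elovl6 to elovl6l was 2.51 ± 0.296 in wild type, 1.18 ± 0.253 in single mutants and 1.11 ± 0.0255 in double mutants (SD, n = 3 each). No mutant ratio reached the wild-type range, and the exact permutation p was 0.1 for each mutant, the smallest that 3 libraries against 3 allow, so the test cannot pass the threshold.

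Of the transcripts of the delta-9 desaturases, which place a double bond in saturated chains, 1 fell and the other did not pass the test. For scd, the less abundant, wild type had 157, 145 and 98 counts, single mutants had 47, 47 and 73, and double mutants had 35, 49 and 42. These correspond to 6.33, 7.73 and 4.50 CPM, to 2.69, 2.78 and 4.17 CPM, and to 2.08, 2.73 and 2.20 CPM. The lowest wild-type library lay only a little above the highest single mutant, and the mutants overlapped. scd fell by 47.8% in single mutants (log2 fold change -0.94, SE 0.23, edgeR adjusted p = 0.00379) and fell by 62.1% in double mutants (-1.40, SE 0.24, edgeR adjusted p = 0.000367). This was the lowest log2 fold change among the 9 genes in each mutant, with the widest standard errors after mlxipl.

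For scdb the wild-type libraries held 43.1, 43.0 and 39.6 CPM, the single mutants 35.8, 52.3 and 48.9 CPM and the double mutants 39.2, 41.7 and 41.3 CPM. The single mutants lay on both sides of the other genotypes. Its log2 fold change was 0.12 in single mutants (95% interval -0.12 to 0.36, edgeR adjusted p = 0.413) and -0.04 in double mutants (-0.28 to 0.20, adjusted p = 0.816). Without single-mutant replicate 1 the former was 0.27 and passed the test (edgeR adjusted p = 0.00730). The TPM ratio of scd to scdb went from 0.446 ± 0.100 in wild type to 0.216 ± 0.0498 in single mutants and 0.174 ± 0.0217 in double mutants (SD, n = 3 each). Neither mutant overlapped wild type in this ratio, and the exact permutation p was 0.1, the smallest possible.

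**Figure D2:**
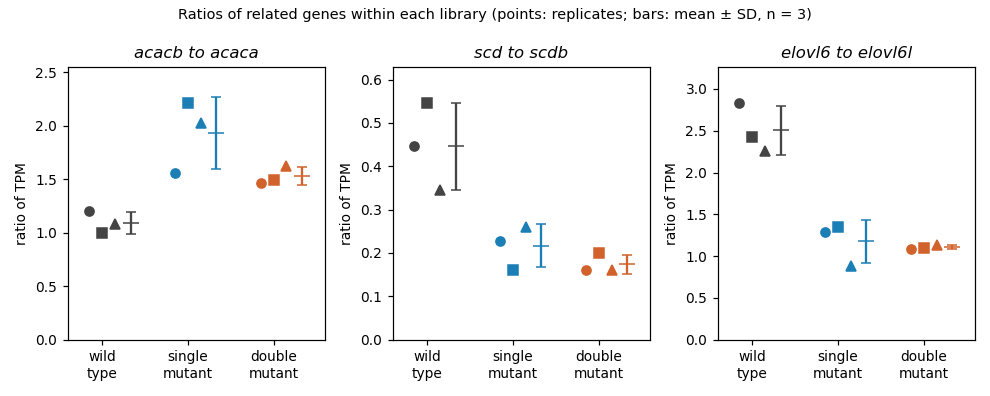
The panels plot the ratio of TPM within each library for acacb to acaca, scd to scdb and elovl6 to elovl6l, against genotype; points are libraries, and bars give the mean ± SD (n = 3). All 6 mutant libraries lie above wild type for the carboxylases and below it for the desaturases and the elongases.

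fads2, which desaturates polyunsaturated fatty acids on the way to long-chain omega-3 and omega-6 products, was the most abundant of the 9 genes. Its wild-type libraries held 319, 299 and 230.3 CPM, the single mutants 343, 327 and 333 CPM and the double mutants 276, 260.4 and 268 CPM. The single mutants were above every other library, while the double mutants lay inside the wide wild-type range. The log2 fold change was 0.24 in single mutants (95% interval 0.04 to 0.44), just short of the threshold with an edgeR adjusted p of 0.0519. In double mutants it was -0.08 (-0.28 to 0.13, edgeR adjusted p = 0.581). The call in single mutants turned on the settings, since fads2 passed in 9 of 17 alternatives, with adjusted p from 0.00797 to 0.167. Without wild-type replicate 3, the lowest wild-type library, the log2 fold change was -0.20 in double mutants and passed the test (edgeR adjusted p = 0.0263).

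Of the 2 regulators, srebf1 was lower in both mutants, and mlxipl was called higher in single mutants only. The level of srebf1 was 31.0, 37.3 and 37.7 CPM in the wild-type libraries, 23.9, 26.4 and 22.0 CPM in the single mutants and 24.5, 26.3 and 26.5 CPM in the double mutants. Every mutant library was below every wild-type library, and the mutants overlapped. srebf1 fell by 31.8% in single mutants (log2 fold change -0.55, SE 0.10, edgeR adjusted p = 0.000463) and fell by 27.0% in double mutants (-0.45, SE 0.10, edgeR adjusted p = 0.00280). These are transcript levels and carry no measure of the cleaved, nuclear form of the protein.

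mlxipl was scarce: wild type had 41, 17 and 15 counts, single mutants had 30, 37 and 36, and double mutants had 22, 23 and 28. In CPM the libraries held 1.65, 0.906 and 0.689, then 1.72, 2.19 and 2.06, then 1.31, 1.28 and 1.46. The single mutants stood above all other libraries, but wild-type replicate 1 came close to the lowest of them. The log2 fold change was 0.85 in single mutants (SE 0.31, edgeR adjusted p = 0.0398) and 0.30 in double mutants (SE 0.33, edgeR adjusted p = 0.526). The call in single mutants was lost in 6 of 17 alternatives. Leaving out wild-type replicate 2 or 3 or single-mutant replicate 2 or 3 gave adjusted p from 0.0796 to 0.141, and DESeq2 gave 0.0548.

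A row whose RefSeq name is fasn2, si:dkey-61p9.11, is no member of the list and was chosen after the table was seen. It held 2.94, 3.68 and 2.57 CPM in wild type, 7.15, 4.80 and 3.25 CPM in single mutants and 4.75, 4.84 and 4.24 CPM in double mutants. The single mutants overlapped the wild type, and the double mutants lay above it. Its log2 fold change was 0.73 in single mutants (edgeR adjusted p = 0.0252) and 0.59 in double mutants (edgeR adjusted p = 0.0769). Without single-mutant replicate 1, the highest library, the former was 0.40 and did not pass (adjusted p = 0.149). It was also lost without wild-type replicate 1 (adjusted p = 0.0667) and without wild-type replicate 3 (adjusted p = 0.0970).

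**Figure D3:**
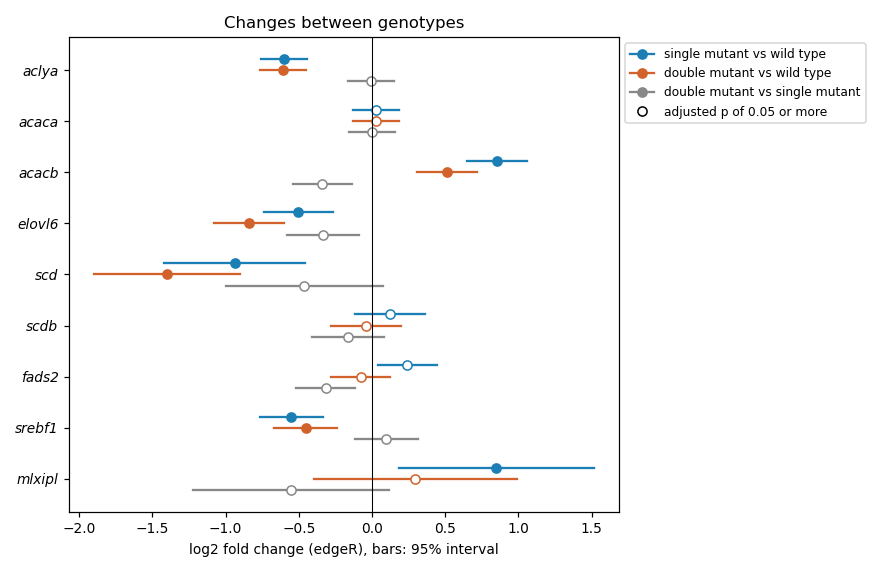
The log2 fold change of each gene is plotted on the horizontal axis for the 3 comparisons, with bars for the 95% interval; filled points passed an edgeR adjusted p under 0.05 and open points did not. scd lies lowest in both comparisons with wild type, at -0.94 and -1.40, and no point of the comparison between the mutants is filled.

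Levels per length placed fads2 far above the other genes in all genotypes. In wild type fads2 stood at 358 ± 46.6 TPM and aclya followed at 66.1 ± 5.69 TPM (SD, n = 3 each). elovl6, acacb, srebf1 and acaca came next, with means between 24.7 and 29.5 TPM. Neighbours in that run overlapped in their libraries and could not be ordered. scdb at 19.0 ± 0.493, scd at 8.49 ± 2.12 and mlxipl at 0.870 ± 0.371 TPM were lower, and none of these overlapped its neighbour.

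The order differed in the mutants at a few places. In single mutants acacb, at 47.8 ± 7.56 TPM, had the second highest mean and overlapped aclya at 43.1 ± 1.53 TPM. In double mutants aclya, at 43.4 ± 0.628 TPM, stayed above acacb at 38.2 ± 1.39 TPM without overlap. elovl6 came after srebf1 and scdb in double mutants, at 16.5 ± 0.961 TPM, and did not overlap scdb at 18.5 ± 0.603 TPM. In every genotype scd and mlxipl were the lowest.

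**Figure D4:**
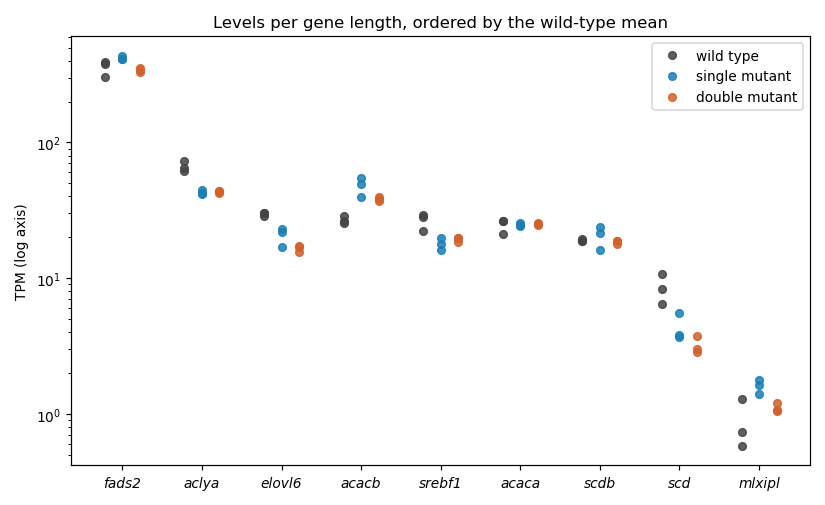
Levels per gene length in TPM are plotted on a log axis, with genes ordered by their wild-type mean and 1 point per library coloured by genotype. fads2 lies highest, at 358 ± 46.6 TPM in wild type, mlxipl lowest, at 0.870 ± 0.371 TPM, and the others between.

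Between the mutants, the second allele came with no call among the 9 genes at this threshold, beside 1.67% of all genes. DESeq2 and limma-voom also gave 0 calls. The share of all genes with an unadjusted p under 0.05 is not given here, so a count at that threshold has no background. By edgeR 3 of the 9 genes were under it, each lower in double mutants. These were acacb at -0.34 (95% interval -0.54 to -0.14, edgeR adjusted p = 0.0892), elovl6 at -0.33 (-0.58 to -0.09, adjusted p = 0.151) and fads2 at -0.32 (-0.52 to -0.12, adjusted p = 0.108). For aclya, acaca and srebf1 the log2 differences were -0.01, -0.00 and 0.10, with intervals of -0.16 to 0.15, -0.16 to 0.16 and -0.12 to 0.31. The median over the 9 genes was -0.32, beside 0.00 over all genes.

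The result rested on single-mutant replicate 1. Without it acacb, elovl6 and scdb were lower in double mutants at an edgeR adjusted p under 0.05, and the calls over all genes rose from 362 to 3860, or 17.6% of the genes then tested. fads2 alone passed with only the 6 mutant libraries in the fit (adjusted p = 0.0217) and without wild-type replicate 3 (adjusted p = 0.0143). The share of counts in the row Metazoa_SRP, a noncoding RNA, differed by genotype as well. It was 3.83 to 4.80% in wild type, 4.79 to 5.41% in single mutants and 5.98 to 6.98% in double mutants, and its part in these differences was not tested.

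Genes that supply carbon and NADPH to the pathway were called in 1 direction by edgeR. Of 19 tested, 8 fell in single mutants and 9 in double mutants, and 0 rose. These are 42.1% and 47.4% of the list, beside 22.6% and 18.0% of all genes called lower. Calls in either direction made up 42.0% of all genes in single mutants and 32.2% in double mutants. At an unadjusted p under 0.05, 0 were higher in single mutants and 1 in double mutants. DESeq2 called 0 higher in either, while limma-voom called 0 and 1, as did edgeR with upper-quartile factors or without single-mutant replicate 1. The list's median log2 fold change was -0.13 and -0.17. The named genes include 3 of the pentose phosphate route, a source of NADPH, and each fell in both mutants. pgd, phosphogluconate dehydrogenase, went from 112 ± 4.06 CPM in wild type to 57.9 ± 1.64 in single and 61.6 ± 2.31 in double mutants (n = 3 each). Its log2 fold changes were -0.96 and -0.87 (edgeR adjusted p = 1.54e-07 and 5.32e-07). pgls, which makes the substrate of pgd, fell by 1.05 on the log2 scale in each mutant, and taldo1, transaldolase, had -0.49 and -0.53. idh1, a cytosolic NADPH source, had -0.39 and -0.49. gck, glucokinase, had the lowest log2 fold change of the named genes, at -4.89 and -4.69, with 181 to 481 counts per library in wild type and 6 to 14 in the mutants.

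The partners of elongation and desaturation leaned lower. Of 21 tested, 12 fell and 3 rose in single mutants, and 10 fell and 2 rose in double mutants, with a median log2 fold change of -0.36 and -0.24. The share called was 71.4% and 57.1% of the list, beside 42.0% and 32.2% of all genes. Without single-mutant replicate 1, a setting chosen after seeing the data for this and the other lists, 6 rose and 12 fell in single mutants. This was 85.7% of the list, beside 47.1% of all genes in that fit. hsd17b12b, the ketoacyl-CoA reductase of the elongation cycle, had -0.86 in single and -0.78 in double mutants (edgeR adjusted p = 1.90e-06 and 5.71e-06). hacd3, of the dehydratase family of the same cycle, had -0.83 and -0.69. The electron carriers cyb5a and cyb5r2, a cytochrome b5 and a reductase of its family, had -0.61 and -0.60, and -1.62 and -1.05. Among elongases of polyunsaturated and very long chains, elovl5 had -0.61 and -0.68 and elovl4b -0.52 and -0.70. elovl2, which acts on long polyunsaturated chains, rose instead, from 131 ± 6.54 CPM to 199.9 ± 20.1 and 168 ± 5.52 CPM (n = 3 each). Its log2 fold changes were 0.61 and 0.35 (edgeR adjusted p = 2.53e-05 and 0.00284).

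Mitochondrial fatty acid synthesis, a separate route that makes the precursor of lipoic acid, had 7 of 13 genes lower and 1 higher in single mutants. In double mutants 3 were lower and 1 higher, and the medians were -0.42 and -0.22. The share called was 61.5% of the list beside 42.0% of all genes in single mutants, and 30.8% beside 32.2% in double mutants. In single mutants 2 were higher and 8 lower without replicate 1 of that genotype, or 76.9% beside 47.1% of all genes in that fit. mcat, the malonyl transferase of that route, had -0.93 in single mutants (edgeR adjusted p = 0.00172) and -0.42 in double mutants (adjusted p = 0.111). The lipoyl transferases lipt1 and lipt2 had -1.13 and -0.96, and -0.65 and -0.73. The acyl carrier protein ndufab1b had -0.42 and -0.29. The gene that rose in each mutant was mlycd, malonyl-CoA decarboxylase, which breaks down the product of the acetyl-CoA carboxylases. It went from 13.1 ± 1.88 CPM to 30.4 ± 4.54 and 24.9 ± 1.12 CPM (n = 3 each), with log2 fold changes of 1.21 and 0.93 (edgeR adjusted p = 3.22e-06 and 5.66e-05). acacb and mlycd, which make and remove malonyl-CoA, were thus both higher in single and double mutants.

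Among 35 lipogenic regulators tested, 6 rose and 9 fell in single mutants, and 6 rose and 10 fell in double mutants, with medians of -0.05 and -0.08. The share called was 42.9%, near the 42.0% of all genes, in single mutants and 45.7% beside 32.2% in double mutants. srebf2, the SREBP paralogue that serves sterol synthesis, fell from 113 ± 1.89 CPM to 72.2 ± 2.40 and 77.7 ± 3.97 CPM (n = 3 each), at -0.65 and -0.54 (edgeR adjusted p = 5.28e-06 and 3.81e-05). mid1ip1l, of the family whose mammalian members promote carboxylase polymerisation, had -0.55 and -0.62. prkaa1, a catalytic subunit of the kinase AMPK that inhibits acetyl-CoA carboxylase, had -0.59 and -0.57. pparg, a nuclear receptor of fat storage, rose from 10.2 ± 0.327 CPM to 20.8 ± 2.73 and 20.5 ± 0.608 CPM (n = 3 each), at 1.02 and 1.01 (edgeR adjusted p = 5.17e-06 and 8.52e-06).

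Acyl-CoA synthetases and transporters, which activate fatty acids, split in direction. Of 15 tested, 5 rose and 4 fell in single mutants and 4 rose and 4 fell in double mutants, with medians of 0.10 and 0.03. The share called was 60.0% and 53.3%, beside 42.0% and 32.2% of all genes. slc27a6 rose from 10.1 ± 0.841 CPM to 21.7 ± 3.75 and 15.7 ± 1.94 CPM (n = 3 each), and acsl2 had log2 fold changes of 0.94 and 0.59. slc27a4 had -0.66 and -0.40, and acsl3b had -0.51 and -0.46. slc27a2a had 0.24 in single mutants, which did not pass the test (edgeR adjusted p = 0.0624), and 0.50 in double mutants (adjusted p = 0.00137).

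For triacylglycerol synthesis and lipid droplets 31 of 34 rows were tested. Of these, 8 rose and 7 fell in single mutants and 3 rose and 7 fell in double mutants, with medians of -0.04 and -0.09. The share called was 48.4% beside 42.0% of all genes in single mutants, and 32.3% beside 32.2% in double mutants. In double mutants 6 rose and 7 fell when single-mutant replicate 1 was left out. This was 40.6% of the 32 then tested, near the 39.6% of all genes in that fit. gpam, the mitochondrial acyltransferase that begins glycerolipid synthesis, fell from 81.3 ± 3.92 CPM to 49.8 ± 1.61 and 52.7 ± 1.87 CPM (n = 3 each), at -0.71 and -0.63 (edgeR adjusted p = 4.09e-06 and 1.78e-05). plin6, a lipid droplet coat protein of fish, had -1.04 and -0.98. The lipases pnpla3 and mgll rose, at 1.04 and 0.71 and at 1.01 and 0.84. Over the 134 tested genes of the 6 lists, 1 differed between the mutants by edgeR, which was mttp of this list, beside 1.67% of all genes. At an unadjusted p under 0.05 there were 33, and the share of all genes at that threshold is not given here. DESeq2 called 6 of 137, and its share over all genes is not given here, so that count has no background. Without single-mutant replicate 1 edgeR called 38 of 135, beside 17.6% of all genes in that fit.

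**Figure D5:**
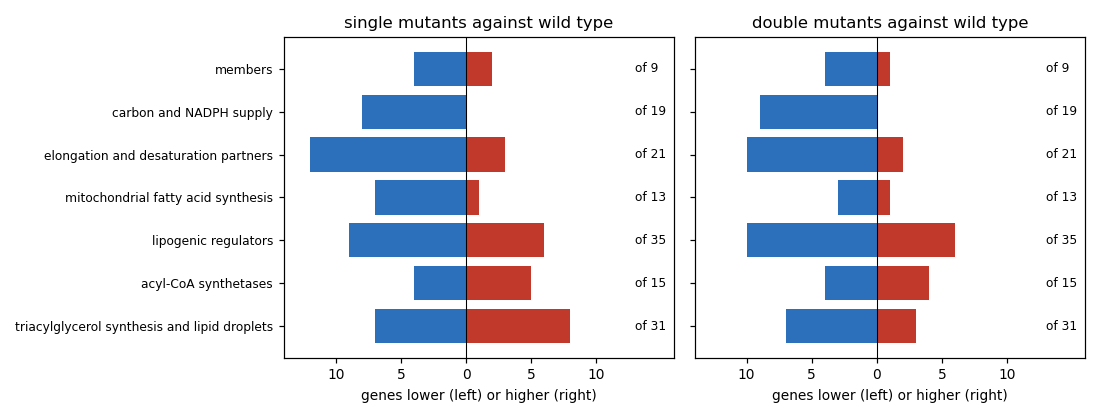
Bars count the genes of each list that were lower (left of 0) or higher (right of 0) at an edgeR adjusted p under 0.05, in single mutants (left panel) and double mutants (right panel) against wild type; the number at the right is the count of genes tested, and the top row holds the 9 genes themselves. With TMM factors the bars of the carbon and NADPH supply list lie to the left only, with 8 and 9 genes.

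Summed levels of cell type markers moved with the genotypes. In these whole-larva libraries fewer cells of a type and less RNA per cell cannot be told apart. The 18 hepatocyte markers summed to between 9890 and 10889 CPM in wild type, 12232 and 13247 CPM in single mutants and 12530 and 12959 CPM in double mutants. The most abundant, apobb.1, weighs most in this sum. It went from 4041 ± 726 CPM in wild type to 5634 ± 297 in single and 5293 ± 372 CPM in double mutants (n = 3 each). By edgeR 11 of the 18 were higher and 1 lower in single mutants, and 7 higher and 3 lower in double mutants. The share called was 66.7% and 55.6%, beside 42.0% and 32.2% of all genes. Without single-mutant replicate 1 the counts were 6 higher and 2 lower in single mutants and 7 higher and 4 lower in double mutants. These are 44.4%, near the 47.1% of all genes in that fit, and 61.1% beside 39.6%. Between the mutants 4 of the 18 differed by edgeR, 3 higher and 1 lower in double mutants, or 22.2% beside 1.67% of all genes. Those higher were serpina1, ahsg1 and hpxa, at log2 differences of 1.14, 0.57 and 2.40, and serpina1l was lower, at -0.98. With single-mutant replicate 1 left out there were 5 higher and 5 lower, or 55.6% beside 17.6% of all genes. The 11 enterocyte markers found summed to between 8763 and 9372 CPM in wild type, 6215 and 6615 CPM in single mutants and 6579 and 6652 CPM in double mutants. Of these 9 were lower and 1 higher in single mutants, and 8 lower and 1 higher in double mutants. The share called was 90.9% and 81.8%, beside 42.0% and 32.2% of all genes. With single-mutant replicate 1 left out, 9 were lower and 0 higher in single mutants, or 81.8% beside 47.1% of all genes.

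The other marker lists also held differences. The 7 epidermis markers summed to between 9212 and 9602 CPM in wild type, 5482 and 6961 CPM in single mutants and 6600 and 8485 CPM in double mutants. They split in direction, with 2 higher and 4 lower in single mutants and 1 higher and 3 lower in double mutants. That is 85.7% and 57.1%, beside 42.0% and 32.2% of all genes. With single-mutant replicate 1 left out, 2 were higher and 5 lower in single mutants, or 100% beside 47.1% of all genes. The most abundant, krt4, had log2 fold changes of -0.67 and -0.63, while krt5, at -0.45 and 0.17, did not pass the test. The 7 skeletal muscle markers lay between 44951 and 49972 CPM in wild type and between 51075 and 59058 CPM in the mutants. Of these 3 were higher and 0 lower in single mutants, and 1 higher and 0 lower in double mutants. The shares were 42.9% and 14.3%, beside 42.0% and 32.2% of all genes. Much of the rise in the sum was myhz1.1, from 7869 ± 1563 CPM to 13361 ± 2325 and 13606 ± 339 CPM (n = 3 each). ckma had log2 fold changes of 0.03 and -0.13, which did not pass the test. The 7 neuron markers lay between 599 and 636 CPM in wild type, 632 and 747 CPM in single mutants and 667 and 712 CPM in double mutants. The single mutants thus overlapped wild type in this sum. By edgeR 4 neuron markers were higher and 0 lower in single mutants, and 2 higher and 0 lower in double mutants. The share called was 57.1% and 28.6%, beside 42.0% and 32.2% of all genes. With single-mutant replicate 1 left out, 4 were higher and 0 lower in each mutant. That is 57.1% in each, beside 47.1% and 39.6% of all genes. The sums of the 7 adipocyte markers overlapped, with 182 to 224 CPM in wild type, 205 to 215 CPM in single mutants and 216 to 239.7 CPM in double mutants. In wild type cfd, lpl and fabp11a had means of 94.5, 59.9 and 47.8 CPM and weighed most in the sum. adipoqa, plin1 and lepa failed the filter on low counts, so the sum says little about them. Of the 4 tested, 2 were higher and 0 lower in each mutant, or 50% beside 42.0% and 32.2% of all genes. These were lpl, with log2 fold changes of 0.58 and 0.64, and adipoqb, with 0.90 and 0.77 from 1.35 CPM in wild type. cfd, at -0.32 and -0.10, and fabp11a, at -0.14 and -0.10, did not pass the test. No marker was at 0 in every library of a genotype. The part of these cell type differences in the lower aclya, elovl6, scd and srebf1 and the higher acacb was not tested.

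The non-member genes whose level followed srebf1 most closely over the 9 libraries were mcf2a, rsrp1, dhx36, ddhd1b and snx17. Likeness was measured by Pearson's r of log2 CPM across the 9 libraries, among 20024 genes with a mean of at least 1 CPM, and it was 0.993, 0.988, 0.980, 0.979 and 0.974 in that order. The libraries share their genotypes, so r rests largely on the gap between wild type and mutants and is given as a description. mcf2a, for example, had means of 8.23, 5.21 and 5.57 CPM in wild type, single and double mutants.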

How the data were processed

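Per the labels' protocols, total RNA of 7 whole larvae per library was depleted of ribosomal RNA and sequenced in pairs. The tools named, per the submitters' processing notes, are cutadapt, STAR, featureCounts and DESeq2, with the build GRCz11. Not given in the sources used here are their versions, the annotation, the strand setting and the handling of multimapping reads. The deposited table holds raw counts per gene and a gene length in bases; all sample columns were used.

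The filterByExpr filter by genotype kept 21694 of 28802 genes. TMM factors and the quasi-likelihood F test with robust estimation (edgeR 4.0.16, R 4.3.3) were used, with all 9 libraries in 1 fit, genotype as the only factor and 6 residual degrees of freedom. The common biological coefficient of variation was 11.4%. Benjamini-Hochberg adjustment ran over all tested genes in each comparison, with calls at an adjusted p under 0.05. CPM rest on TMM-scaled totals, and TPM on the deposited lengths. Alternatives were DESeq2 1.42.0, limma-voom (limma 3.58.1), other scaling factors and filters, only the 6 libraries compared, a replicate block and leaving out each library. The fit was also run on simulated data in which few genes were changed. That run does not test the scaling where many genes differ, as here.

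The members and gene lists were chosen with earlier results of these data known. Named pathway genes are up to 4 called genes per list and comparison with wild type with the smallest adjusted p; likeness to srebf1 used a pseudocount of 0.5 CPM. Genes outside this rule are marked. Names come from RefSeq (GRCz12tu), so no coordinates are given. Sequence features, and genes most like fasn, were not analysed here.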

Additional observations from a re-analysis of the deposited data

Results flagged for a closer look

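mttp, of the triacylglycerol list, encodes the transfer protein that loads lipid onto apolipoprotein B, and its difference from wild type was not the same in the mutants. It was named after its values were seen. Its wild-type libraries held 186, 179 and 185 CPM, the single mutants 162, 136 and 145 CPM and the double mutants 177, 185 and 189 CPM. The single mutants lay below all other libraries. The log2 fold change was -0.31 in single mutants (edgeR adjusted p = 0.00282) and 0.00 in double mutants (adjusted p = 0.978). The test of the difference itself gave 0.32 (SE 0.07, edgeR adjusted p = 0.0390). This call was lost with only the 6 mutant libraries in the fit and in 7 of 9 fits that left out 1 library, where adjusted p reached 0.194.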

How the results depend on the processing

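The calls of aclya, acacb, elovl6, scd and srebf1 against wild type held in all 17 alternatives in both comparisons. The number of the 9 genes called ranged from 5 to 7 in single mutants and from 5 to 6 in double mutants. Between the mutants 1 was called with only the 6 libraries compared, and 0 to 3 when each library was left out in turn. Over all genes that comparison gave 862 calls with DESeq2, 184 with only the 6 libraries compared and 108 to 3860 when each library was left out, against 362; the causes were not tested. Signs turned only for values that were not called in the main settings. Between the mutants acaca was at 0.0015 with DESeq2, 0.0184 with upper-quartile factors and 0.0014 with DESeq2 size factors, and aclya was at 0.0105 with upper-quartile factors. Leaving out each library gave -0.0123 to 0.0764 for acaca in single mutants (lowest without wild-type replicate 1). In double mutants it gave -0.0247 to 0.0761 for acaca (lowest without wild-type replicate 1), -0.0804 to 0.0073 for scdb (above 0 without wild-type replicate 1 or double-mutant replicate 1) and -0.2034 to 0.0424 for fads2 (above 0 without wild-type replicate 1). The fads2 value of -0.2034, without wild-type replicate 3, passed the test. Between the mutants it gave -0.0229 to 0.0076 for acaca (above 0 without single-mutant replicate 1 or double-mutant replicate 3), -0.0457 to 0.0123 for aclya (highest without single-mutant replicate 1), -0.39 to 0.1951 for si:dkey-61p9.11 (highest without single-mutant replicate 1) and -0.1509 to 0.1059 for aclyb (highest without single-mutant replicate 3). Same-numbered libraries did not deviate together (r from -0.03 to 0.08). These values show no pairing by number, but with 3 libraries per genotype they cannot exclude a shared clutch or batch. With the replicate block 7, 5 and 0 of the 9 genes were called in single mutants, double mutants and between them, and 9054, 7006 and 373 genes in all. scd and mlxipl had 15 to 157 counts per library, and the part of depth in their standard errors was not tested. For the lists, leaving out single-mutant replicate 1 was chosen after seeing the data. Between the mutants it gave 1 call for carbon and NADPH supply (5.3% of the list) and 2 for mitochondrial fatty acid synthesis (15.4%). It gave 8 each for elongation and desaturation partners (38.1%), lipogenic regulators (22.9%) and acyl-CoA synthetases (53.3%). For triacylglycerol synthesis and lipid droplets it gave 11 (34.4%). The share of all genes in that fit was 17.6%. In the main settings the lists had 0 calls, and 1 in the last.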
